A study of Homo sapiens with 6 samples.

Results

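The NR4A nuclear receptors (NR4A1, NR4A2 and NR4A3) and the subunits of the AP-1 transcription factor (JUN, JUNB, JUND, FOS, FOSB, FOSL1 and FOSL2) were followed in PC-3 cells with lowered MTA1. These 10 genes were taken by symbol from a count table of 30651 genes, and all 10 had enough reads to be among the 15423 genes tested. The families were chosen by name, but with the counts and fold changes of this same comparison known. The levels and fold changes of the members are therefore given as a description, without p-values.

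PC-3 is an established human prostate cancer line that was derived from a metastasis in bone. Total RNA was sequenced from 3 control libraries (Ctrl) and 3 libraries of a group named after MTA1, which is part of NuRD, a complex that remodels chromatin and removes histone acetylation. In the deposited tables its columns are headed shMTA1, with sh as in short hairpin RNA, and per the labels the work used lentivirus and stable clones. All cells were grown in medium with fetal bovine serum, and the labels name no stimulus. The number of hairpins and clones is not given, and nothing says that the libraries came from separate cultures, so p-values below reflect only how much these libraries differ within a group, and that may be technical.

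AP-1 is a dimer. JUN proteins pair with one another or with FOS proteins through a leucine zipper, whereas FOS proteins need a JUN-type partner. JUN and FOS are strong activators, while JUNB and JUND are often weaker or opposing partners at the same sites. The NR4A receptors are orphan nuclear receptors without a known classical ligand, so their activity depends largely on how much of them is made. The NR4A, FOS and JUN families all hold immediate early genes, whose messages appear fast after serum, growth factors or stress and decay fast.

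Library depth ran from 29909172 to 33849262 counts. MTA1 itself stood at 38.3, 40.6 and 41.1 CPM in Ctrl and at 17.3, 18.0 and 16.7 CPM in the MTA1 group, so every library of the group named after it had less of its message. CPM stands for counts scaled to a common depth after TMM normalization, except in the marker sums below, which were scaled by library size only. Means carry the SD of n = 3 libraries, and log2 fold changes, the MTA1 group over Ctrl, carry the SE. The epithelial and mesenchymal genes expected in PC-3 cells were abundant, with KRT8 at 45802 to 63084 counts and VIM at 22977 to 33205 counts. The luminal prostate genes KLK3 and TMPRSS2 had at most 2 counts in any library. Markers of leukocytes summed to 2.10 to 3.33 CPM, with PTPRC at no more than 3 counts. The 7 fibroblast markers, all of them listed, summed to 77.2 to 85.6 CPM in Ctrl and 116.8 to 117.1 CPM in the MTA1 group, as THY1 went from 964 to 1120 counts to 2350 to 2413 while COL1A1 went from 983 to 1052 counts to 486 to 524. Mitochondrially encoded transcripts made up 5.31% to 5.81% of each Ctrl library and 7.10% to 7.77% of each MTA1 library. The part of these differences in the results below was not tested. In RNA from whole cultures, fewer cells making a message and less message per cell cannot be told apart.

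The promoters of most members shared a short element, the CRE core TGACG. It begins the cAMP response element TGACGTCA, which CREB and ATF proteins bind. RefSeq promoter windows (GRCh38.p14, 250 bases before to 50 after the annotated start) were at hand for 8 of the 10 members, with a pair of windows for NR4A1. NR4A2 and FOSL1 were not analysed here. The CRE core was found on either strand in 7 of these 8 members, against 24.6% of all 35116 windows. Shown are the 140 bases before the start of the lowest member of the NR4A family, of the JUN subunits that moved in opposite directions, and of FOS. Capitals mark TGACG or its reverse complement, the motif TATAAA, and in JUN the letters TGACATCA.
NR4A3, chr9:99821745-99821884, plus strand: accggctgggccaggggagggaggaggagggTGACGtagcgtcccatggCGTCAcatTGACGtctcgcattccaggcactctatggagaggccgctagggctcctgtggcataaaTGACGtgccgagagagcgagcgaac
JUN, chr1:58784048-58784187, minus strand: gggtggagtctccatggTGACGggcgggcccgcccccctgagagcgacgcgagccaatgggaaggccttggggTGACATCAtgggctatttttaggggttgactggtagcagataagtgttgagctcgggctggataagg
JUNB, chr19:12791346-12791485, plus strand: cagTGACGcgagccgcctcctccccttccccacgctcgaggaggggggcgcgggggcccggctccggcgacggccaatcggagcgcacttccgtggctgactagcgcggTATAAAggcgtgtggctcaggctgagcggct
FOS, chr14:75278688-75278827, plus strand: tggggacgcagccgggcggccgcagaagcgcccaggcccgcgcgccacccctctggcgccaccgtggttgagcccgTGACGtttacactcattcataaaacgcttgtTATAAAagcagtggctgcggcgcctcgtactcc

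NR4A3 held 4 CRE cores, with first bases at -109, -91, -83 and -25 from the start. FOS and FOSB each held 1, at -64 and -60, with TATAAA at -33 and -30. JUNB held its core at -137 and TATAAA at -31. JUND was the only one of the 8 members with the full palindrome TGACGTCA, which contains the core on both strands and which 1.85% of all windows hold. JUN held 1 core at -123 and, at -67, the letters TGACATCA, known as a binding site of JUN with ATF2 and present in 2.61% of all windows. This last motif was chosen after the sequence was read. The AP-1 element TGANTCA was found only in FOSL2, 5 bases past the start (7.71% of all windows). Within these windows, the NR4A element AAAGGTCA (1.22%) and the CArG box bound by SRF (1.29%) were found in none of the 8. Neither NR4A1 window held any of the motifs searched. Sites more than 250 bases before the start lay outside the windows and were not searched, so a member may hold such an element further upstream. A match is a stretch of letters and not a measured binding site.

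**Figure D1:**
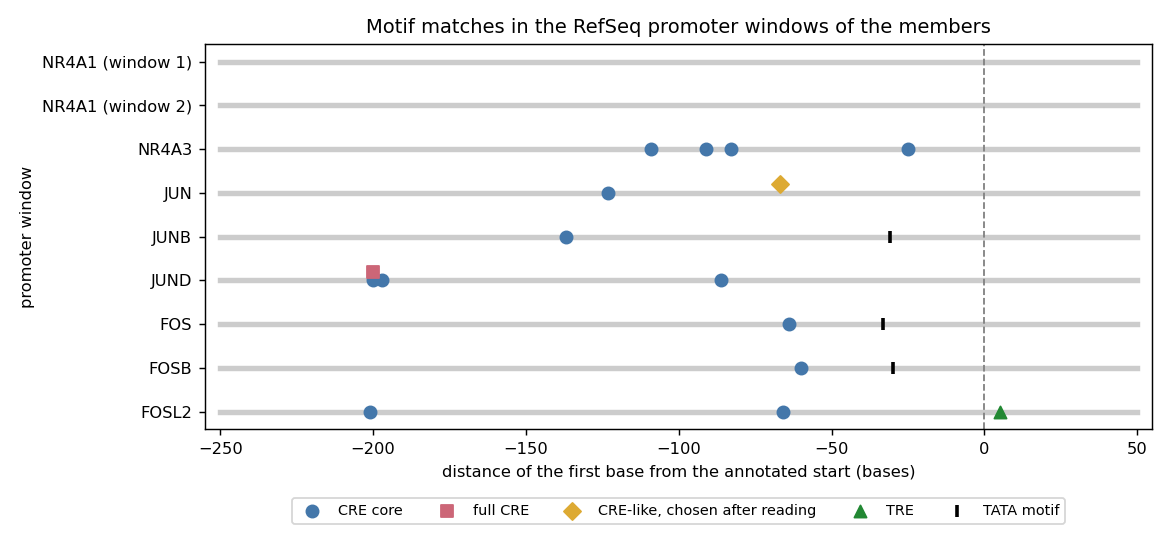
Positions of motif matches in the RefSeq promoter windows of 8 members, by the distance in bases of the first matching base from the annotated start (dashed line). The CRE core (circles) lies in all windows but those of NR4A1, and NR4A3 holds 4.

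The 3 NR4A receptors were all lower in the MTA1 group. NR4A1, by far the most abundant of them, stood at 156, 154 and 153 CPM in Ctrl and at 50.5, 51.0 and 48.9 CPM in the MTA1 group. The groups were far apart, and the libraries within each lay within a few CPM. The log2 fold change was -1.62 ± 0.042, with 32.5% of the Ctrl level left. NR4A2, a receptor best known from dopamine neurons, stood at 13.1, 11.9 and 11.4 CPM in Ctrl and at 4.33, 5.14 and 4.48 CPM in the MTA1 group (-1.38 ± 0.090). NR4A3 stood at 7.86, 8.31 and 7.66 CPM in Ctrl and at 1.67, 1.64 and 1.39 CPM in the MTA1 group, with 243 to 272 counts against 43 to 52. It had the lowest fold change of the members, -2.34 ± 0.12, and kept 19.7% of the Ctrl level.

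Among all 15423 tested genes ordered by fold change, NR4A3 was number 47 from the lowest, NR4A1 number 146 and NR4A2 number 214. Of all tested genes, 3.38% stood at 50% or less of their Ctrl CPM, as did each of the NR4A genes. These positions come from the comparison that brought the family forward and carry no weight as a test. On the authors' FPKM scale, which corrects for gene length, the 3 genes together summed to 22.0 ± 0.399 in Ctrl and 7.50 ± 0.188 in the MTA1 group. The make-up of that sum moved little, with NR4A1 at 83.1% ± 0.582 of it in Ctrl and 82.9% ± 0.956 in the MTA1 group. NR4A3 went from 4.94% ± 0.215 to 2.98% ± 0.244 of the family sum. For the low genes NR4A2 and NR4A3 the fold change depends on the scale, being -0.82 and -0.77 on log2(FPKM + 1), where the added constant weighs heavily.

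JUN and JUNB changed places. JUN stood at 257, 248 and 255 CPM in Ctrl and at 461, 441 and 442 CPM in the MTA1 group, so that each library of the MTA1 group lay above all Ctrl libraries. Its log2 fold change was 0.82 ± 0.039, the highest of the 10 members and number 786 from the highest of all tested genes. JUNB stood at 164, 169 and 168 CPM in Ctrl and at 87.3, 94.8 and 91.7 CPM in the MTA1 group. All of the latter lay below the Ctrl range, with a log2 fold change of -0.87 ± 0.042. JUNB overlaps the gene HOOK2 on the opposite strand, and whether its counting used strand is not given. JUND, usually the steadily expressed subunit, stood at 36.4, 37.3 and 39.8 CPM in Ctrl and at 27.0, 28.4 and 30.1 CPM in the MTA1 group (-0.41 ± 0.055), again without overlap.

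**Figure D2:**
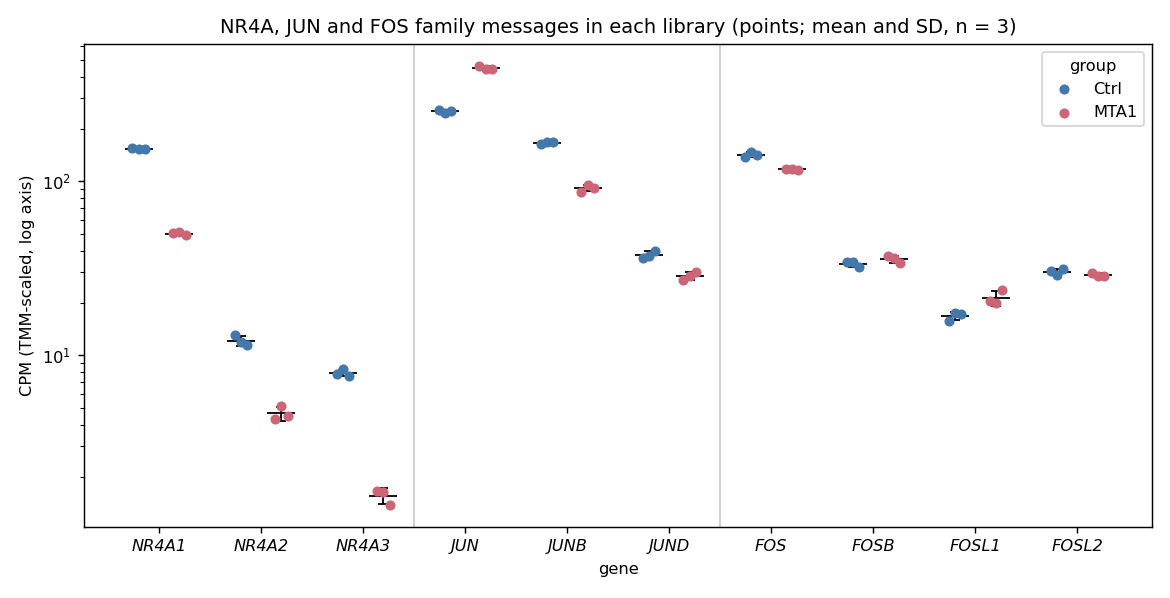
Level of each member in CPM (log axis) in the 3 Ctrl and 3 MTA1 libraries (points), with mean and SD as bars. The NR4A genes, JUNB, JUND and FOS lie lower in the MTA1 group, JUN and FOSL1 lie higher, and FOSB and FOSL2 overlap.

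Per length, JUNB was the most abundant member in Ctrl at 78.8 ± 1.88 FPKM, above JUN at 60.4 ± 0.669 FPKM. In the MTA1 group JUN led at 112 ± 2.49 FPKM and JUNB followed at 45.1 ± 1.91 FPKM. The ratio of JUN to JUNB in FPKM was 0.793, 0.741 and 0.767 in the Ctrl libraries and 2.66, 2.35 and 2.43 in those of the MTA1 group. JUN made up 38.7% ± 0.803 of the summed FPKM of its family in Ctrl and 65.6% ± 1.45 in the MTA1 group, while JUNB went from 50.5% ± 0.714 to 26.5% ± 1.14 and JUND from 10.8% ± 0.379 to 7.86% ± 0.443. The sum itself differed by a smaller step, at 153.71, 156.85 and 157.52 FPKM in Ctrl and 170.1, 169.7 and 170.9 FPKM in the MTA1 group. It was higher in each MTA1 library, while the leading subunit was JUNB in every Ctrl library and JUN in every MTA1 library. On log2(FPKM + 0.1) the median log2 fold change of all tested genes was itself 0.059, against 0.002 after TMM. The part of this offset in the family sums was not tested.

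The FOS family moved less than the JUN family. FOS stood at 138, 147 and 142 CPM in Ctrl and at 117, 118 and 116 CPM in the MTA1 group, a log2 fold change of -0.28 ± 0.041 without overlap. FOSL1 (also called FRA-1), which is often raised in invasive cells, stood at 15.8, 17.5 and 17.2 CPM in Ctrl and at 20.5, 19.9 and 23.8 CPM in the MTA1 group (0.34 ± 0.069). The groups did not overlap, and the third library of the MTA1 group was the highest.

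FOSB stood at 34.4, 34.5 and 32.0 CPM in Ctrl and at 37.1, 36.2 and 33.8 CPM in the MTA1 group, and FOSL2 at 30.5, 28.8 and 31.4 CPM against 29.8, 28.6 and 28.4 CPM. Both overlapped between the groups, and FOSB also shares its locus with ERCC1 on the opposite strand. The log2 fold changes were 0.09 ± 0.054 for FOSB and -0.06 ± 0.052 for FOSL2. The value of FOSB was 0.15 and that of FOSL2 turned to 0.0058 when libraries were scaled by size only, a scaling that put the median of all tested genes at 0.07. FOS made up 69.9% ± 0.341 of the family's FPKM in Ctrl and 62.8% ± 1.16 in the MTA1 group, and FOSL1 14.0% ± 0.415 and 19.3% ± 1.78. The family sum was 55.2 ± 2.04 FPKM in Ctrl and 53.0 ± 0.624 in the MTA1 group. Summed JUN-family FPKM was 2.83 ± 0.0811 times summed FOS-family FPKM in Ctrl and 3.21 ± 0.0264 times in the MTA1 group.

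**Figure D3:**
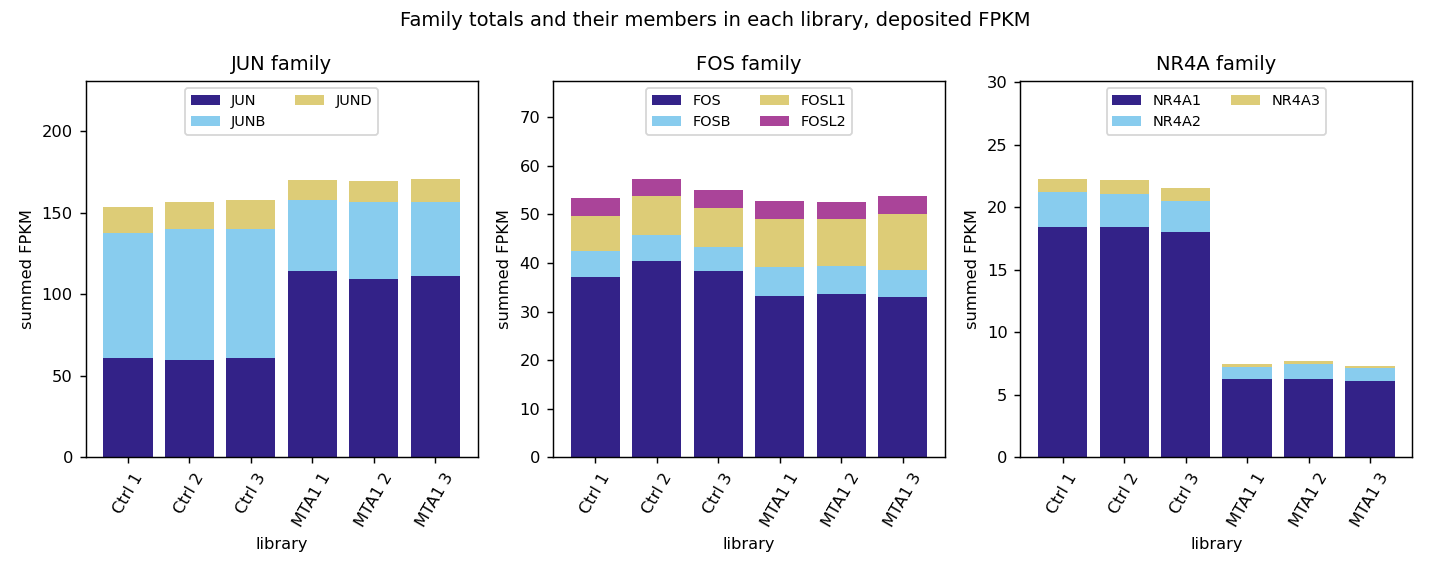
Deposited FPKM summed over the members of each family in each library, with 1 colour for each member and bars from 0. In the JUN family the JUN part grows from 38.7% to 65.6% while the total changes little, and the NR4A total goes from 22.0 to 7.50 FPKM.

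Counted over the members, 8 of 10 had no overlap between the groups in CPM, against 62.7% of all tested genes, with 2 above the Ctrl libraries (32.1% of all tested genes) and 6 below them (30.6%). These 8 also passed 0.05 in the quasi-likelihood fit of edgeR, adjusted by Benjamini-Hochberg, 2 as higher and 6 as lower, against 58.1% of all tested genes (29.5% higher, 28.6% lower). Because this comparison brought the members forward, nothing is read from these counts. The median log2 fold change of the members was -0.34, and that of all tested genes 0.0015. The order of the levels in FPKM was JUNB, JUN, FOS, NR4A1, JUND, FOSL1, FOSB, FOSL2, NR4A2 and NR4A3 in Ctrl. In the MTA1 group it was JUN, JUNB, FOS, JUND, FOSL1, NR4A1, FOSB, FOSL2, NR4A2 and NR4A3. In both orders no neighbours overlapped over the 3 libraries.

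The spread within groups does not depend on the comparison. The coefficient of variation of NR4A1 was 1.18% in Ctrl and 2.18% in the MTA1 group. The median of the 200 tested genes nearest in mean CPM over all 6 libraries was 2.77% and 3.21%. Level in this paragraph means that average over all libraries, not the level within a group. That of JUN was 1.88% and 2.50%. JUNB had 1.74% in Ctrl and 4.09% in the MTA1 group, beside 2.89% and 3.12% for genes of its level, and FOS had 3.42% and 1.26%, beside 2.93% and 3.25%. FOSL1 in the MTA1 group had 9.79%, beside 4.82% for genes of its level, the widest of the AP-1 subunits. NR4A3 in the MTA1 group had 10.05%, beside 8.58% for genes matched on that average. NR4A3 itself stood at 1.57 CPM there and at 7.94 CPM in Ctrl. Its spread was not compared with that of genes equally low in the MTA1 group.

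Other immediate early genes were mostly lower as well. Of 33 on a list that leaves the members out, 29 were tested, and in edgeR's test over all genes 18 fell and 5 rose, where 28.6% of all tested genes fell and 29.5% rose. Their median log2 fold change was -0.40, and -0.23 on log2(FPKM + 1). CCN2, which encodes a secreted matrix-associated factor, fell from 27.7 ± 1.29 to 10.2 ± 1.03 CPM (-1.45 ± 0.069, edgeR adjusted p = 9.7e-13). The small GTPase gene RHOB fell from 38.3 ± 1.86 to 21.3 ± 0.524 CPM (-0.85 ± 0.054) and the repressor KLF10 from 80.2 ± 3.26 to 46.8 ± 2.86 CPM (-0.78 ± 0.051). The survival factor MCL1 rose from 154 ± 3.03 to 226 ± 11.8 CPM (0.55 ± 0.043), as did the clock gene PER1 (0.40 ± 0.046). The zinc-finger factor EGR1, picked with its value in view, fell by less (-0.23 ± 0.047). The remaining 6 did not pass.

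Genes known as AP-1 targets went mostly the other way. Of 24 listed, 22 were tested, and 13 rose and 3 fell, where 29.5% of all tested genes rose and 28.6% fell. The median of the list was 0.49 on the log2 scale. The collagenase MMP13 rose from 10.7 ± 1.16 to 27.8 ± 0.984 CPM (1.38 ± 0.069, edgeR adjusted p = 1.8e-12), the angiogenic factor VEGFA from 37.7 ± 0.362 to 69.9 ± 2.56 CPM (0.89 ± 0.046) and the urokinase receptor PLAUR from 148 ± 2.55 to 260 ± 13.4 CPM (0.81 ± 0.043). The cytokine IL6 fell from 112 ± 3.27 to 53.4 ± 1.17 CPM (-1.07 ± 0.043) and the heme oxygenase HMOX1 from 37.2 ± 1.55 to 17.2 ± 0.491 CPM (-1.12 ± 0.055). The third to fall, chosen after its value was seen, was the cyclin gene CCND1 (-1.11 ± 0.072). Many of these genes also answer to other factors, and several were known from earlier results of these data when the list was written.

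Of 14 other leucine-zipper factors that can pair with FOS or JUN proteins, 12 were tested, 7 fell and 3 rose, with a median of -0.19, or -0.12 with scaling by library size only. Over all tested genes 28.6% fell and 29.5% rose. MAFF fell from 81.5 ± 3.06 to 65.6 ± 3.43 CPM (-0.31 ± 0.048), ATF4, the main factor of amino acid stress, from 1488 ± 24.2 to 1309 ± 24.8 CPM (-0.19 ± 0.039), and BATF3 from 28.1 ± 0.512 to 23.3 ± 1.81 CPM (-0.27 ± 0.058). DDIT3, a stress factor, rose from 57.8 ± 2.77 to 135 ± 3.05 CPM (1.23 ± 0.045) and NFE2L1, which induces proteasome genes, from 237 ± 10.5 to 435 ± 1.29 CPM (0.88 ± 0.041).

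Factors and kinases upstream of the early genes went in both directions. Of 17 listed SRF, TCF, CREB and MEF2 regulators, 16 were tested, 4 rose and 4 fell, so that 50% passed, against 58.1% of all tested genes. Their median of -0.06 changed sign with the setting, to 0.0083 with scaling by library size only, 0.017 without Ctrl replicate 3 and 0.037 without MTA1 replicate 2, and it was -0.025 without Ctrl replicate 2. MEF2D rose (0.29 ± 0.050), as did CREB1 (0.51 ± 0.092), a factor that binds the CRE. MRTFA, a coactivator of SRF, rose by 0.22 ± 0.076, a call that ended without Ctrl replicate 2 (edgeR adjusted p = 0.085), without MTA1 replicate 2 (0.060) and in the DESeq2 Wald test (0.080). ATF1, a close relative of CREB1, fell from 39.5 ± 1.54 to 27.2 ± 0.899 CPM (-0.54 ± 0.052), and the SRF coactivator MRTFB fell (-0.60 ± 0.102). On log2(FPKM + 1), which understates low genes, MRTFB stood at -0.16 and CREB1 at 0.22.

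Of 26 MAP kinases and their activators, 24 were tested, 7 rose and 7 fell, so that 58.3% passed, against 58.1% of all tested genes. Their median of -0.0082 changed sign too, to 0.060 with scaling by library size only, 0.012 without Ctrl replicate 2, 0.0056 without MTA1 replicate 2 and 0.017 without MTA1 replicate 3. RPS6KA4, a kinase of CREB and chromatin, rose from 12.5 ± 0.346 to 20.6 ± 0.832 CPM (0.72 ± 0.061), and the ERK activator MAP2K1 from 19.6 ± 0.748 to 29.9 ± 0.837 CPM (0.61 ± 0.054). MAPK12, a p38 kinase, rose (0.35 ± 0.046). MAPK3, which encodes ERK1, fell from 38.5 ± 2.21 to 27.3 ± 1.46 CPM (-0.50 ± 0.057), and the p38 activator MAP2K6 fell (-0.48 ± 0.059, or -0.21 on log2(FPKM + 1)).

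Among 15 genes that act on the decay of early messages or the turnover of JUN-type proteins, 7 fell and 3 rose. That is 66.7% passing, against 58.1% of all tested genes (28.6% lower, 29.5% higher). The median of the list was -0.13, or -0.062 with scaling by library size only. ZFP36L2, which binds AU-rich messages, fell from 28.5 ± 1.29 to 17.0 ± 1.06 CPM (-0.75 ± 0.060), the deadenylase CNOT7 from 45.6 ± 1.38 to 31.8 ± 0.734 CPM (-0.52 ± 0.049) and COP1, a ubiquitin ligase of JUN, from 20.8 ± 0.423 to 15.5 ± 0.872 CPM (-0.43 ± 0.060). TRIB1, an adaptor of COP1, rose (0.43 ± 0.072), as did ZFP36L1 (0.36 ± 0.061).

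Of 16 retinoid X and other orphan nuclear receptors, 12 were tested, 6 fell and 3 rose. Thus 75% passed, against 58.1% of all tested genes (28.6% lower, 29.5% higher). The median of the list was -0.17. It was -0.10 without MTA1 replicate 3, -0.11 with scaling by library size only and -0.062 on log2(FPKM + 1). RXRA, a heterodimer partner of NR4A1 and NR4A2, fell from 68.2 ± 0.372 to 41.3 ± 1.16 CPM (-0.72 ± 0.045, edgeR adjusted p = 4.4e-11). NR2F1 (-0.54 ± 0.059) and the clock repressor NR1D2 (-0.68 ± 0.075) fell too, while NR2C1 (0.59 ± 0.101) and NR1D1 (0.51 ± 0.097) rose.

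**Figure D4:**
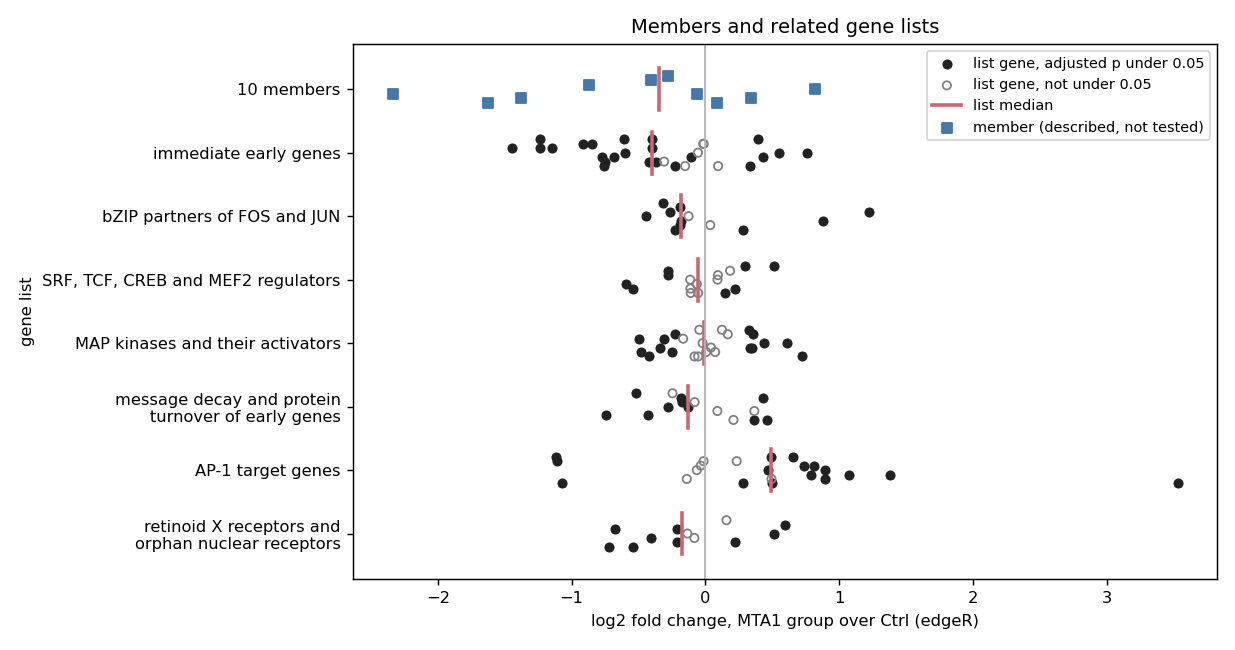
Log2 fold changes of the 10 members (squares) and of the tested genes of 7 related lists (filled circles passed an adjusted p of 0.05, open circles did not), with the list median as a red line. The immediate early genes centre at -0.40 and the AP-1 target genes at 0.49.

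The genes whose pattern over the 6 libraries was most like that of JUN, by the Euclidean distance of log2 CPM centred on the Ctrl mean, were LRRC59 (distance 0.0497), the AP-1 target PLAUR (0.0597) and NPTN (0.0662). This distance mainly picks genes of like fold change, here 0.81, 0.81 and 0.84 beside 0.82 for JUN. Whether they share regulation was not tested. Closest to NR4A3 were SAMD11 (0.26), ZDHHC11 (0.27), which has a near-identical copy that can share reads, and the calcium-binding protein gene S100P (0.30). S100P went from 135 ± 4.11 to 24.5 ± 1.82 CPM.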

How the data were processed

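Raw read counts for each gene, as whole numbers, and FPKM values, which the authors scaled by length and depth and rounded to 2 decimals, were deposited. Per the labels, the libraries were stranded total RNA read as pairs on a NovaSeq. The aligner, counter, strand setting, build and annotation were not given in the sources used here, and DESeq2 is named in the submitters' processing notes without a role. Columns named shMTA1 were assigned to the MTA1 samples by name, and those named NC to Ctrl because no other group was left. Counts were fitted in R 4.3.3 with edgeR 4.0.16 (filterByExpr, TMM, quasi-likelihood F test, 2-sided, group as the only term), with Benjamini-Hochberg adjustment over 15423 genes and a threshold of 0.05. The common biological coefficient of variation was 4.45%. The members and lists were chosen with earlier results of these data known. Members apart, the text names up to 3 genes with the smallest p of each list in its main direction and up to 2 in the other, and 3 nearest patterns (mean of 2 CPM or more) for the members with the highest and lowest fold change. Promoters are from RefSeq, and a planned comparison of protein sequences was not run. Alternatives used DESeq2 1.42.0 and limma 3.58.1, on log2 values with pseudocounts of 0.1 and 1 for FPKM.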

Additional observations from a re-analysis of the deposited data

How the results depend on the processing

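Over 16 alternatives (other scalings and filters, DESeq2, limma-voom, limma on both FPKM scales, the replicate block and each library left out) the members kept their direction, except FOSL2. Its log2 fold change of -0.06 was 0.0058 with scaling by library size only, 0.0068 on log2(FPKM + 0.1) and 0.0054 on log2(FPKM + 1). FOSB passed the threshold as higher under these same settings (0.15, 0.15 and 0.13). The log2 fold change of JUN ranged from 0.80 to 0.89, that of JUNB from -0.90 to -0.79, that of NR4A1 from -1.64 to -1.42 and that of NR4A3 from -2.39 to -0.77, the last on log2(FPKM + 1). The share of JUN in its family had only 4 alternatives per group, namely unrounded FPKM and each library of that group left out. Over these it ranged from 38.3% to 39.0% in Ctrl and from 64.8% to 66.1% in the MTA1 group. Of all genes called, 50.8% were higher, against 60.1% with scaling by library size only and 60.3% on log2(FPKM + 1), and the number called ranged from 7724 to 9139. Among the other named genes, the call of MRTFA alone was lost. Besides the genes given above, log2(FPKM + 1) moved CCND1 to -0.68, CNOT7 to -0.34, NR1D2 to -0.43 and NR2C1 to 0.29, and scaling by library size only moved ATF4 to -0.12. FOSB was 0.046 without Ctrl replicate 3, and FOSL2 was -0.10 without Ctrl replicate 2 and -0.039 without Ctrl replicate 3. Same-numbered libraries showed little shared deviation (correlations 0.067, -0.021 and 0.019). The best-correlated MTA1 library had the same number for Ctrl replicates 1 and 3 but not for replicate 2. Whether the numbers pair the libraries cannot be told from 3 libraries a group. The replicate block moved the number of genes called from 8954 to 9139. Depth limits NR4A3, with 43 to 52 counts a library in the MTA1 group.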

Other observations

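In GENCODE 29, 4 of the 10 members overlap another gene, on the opposite strand apart from a transcript on the same strand as FOSL2. The libraries were stranded, but the strand setting of the counting is not given. Whether reads of opposite-strand pairs were kept apart is therefore not known. JUNB overlaps HOOK2 on the opposite strand, a gene that had 2167, 2116 and 2213 counts in Ctrl and 2289, 2603 and 2511 in the MTA1 group. FOSB overlaps ERCC1, also on the opposite strand, a DNA repair gene with 651 to 715 counts in the Ctrl libraries and 546 to 651 in the others. The antisense transcript of NR4A1 had at most 5 counts in any library, beside at least 1517 for NR4A1, and those overlapping FOSL2 had at most 8, beside at least 882.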
